A study of Mus musculus with 9 samples.

Results

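Peak calls were examined over the 4 Hox clusters (A, B, C and D) in ATAC-seq libraries of the mouse pharyngeal region at E9.5. The members were 38 listed Hox genes, of 22208 protein-coding genes tested on chromosomes 1 to 19 and X. The window of each cluster ran from its first to its last listed gene with 20 kb added on each side, and together the windows spanned 645 kb of mm9. Overlapping peaks of the 9 libraries merged into 73335 regions, of which 53 touched a window and 50 had a listed gene as the Hox gene with the nearest transcription start site (TSS). ATAC-seq uses a transposase that inserts adapters into accessible DNA, and a peak is an interval where insertions pile up.

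GFP+ DAPI- cells were sorted from pooled Swiss Webster embryos carrying a Cre-dependent Rosa26-GFPflox/+ reporter, with 3 libraries per group. Tbx1-Cre Ctrl embryos were Tbx1Cre;Rosa26-GFPflox/+. The Cre is knocked into Tbx1 and inactivates that copy, so these controls had 1 working copy of the T-box factor gene. Tbx1-Cre cKO embryos were Tbx1Cre/flox;Rosa26-GFPflox/+ and lost the remaining copy in the same lineage, which covers mesoderm, endoderm and ectoderm. Mesp1-Cre Ctrl embryos were Mesp1Cre;Rosa26-GFPflox/+, whose GFP marks mesoderm. Their genotype holds no altered Tbx1 allele, unlike that of Tbx1-Cre Ctrl. The tissue label of both Tbx1-Cre groups adds the back to the pharyngeal apparatus and heart of the Mesp1-Cre group, while the methods of the study name the pharyngeal apparatus without the heart. Dissection, lineage and Tbx1 copy number therefore cannot be told apart in the comparison with Mesp1-Cre.

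Hox genes encode homeodomain transcription factors that give cells their position along the head-to-tail axis. Within a cluster the genes lie in the order in which they are used, with low paralogue numbers at the 3′ end expressed early and far forward, and high numbers at the 5′ end expressed late and near the tail. Pbx and Meis proteins bind DNA together with Hox proteins, and retinoic acid, acting through receptors on direct repeats beside the clusters, switches on 3′ genes. In the pharyngeal arches the first arch lacks Hox expression, and Hoxb1 marks posterior second heart field cells.

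The lists held 43298 to 49490 peaks in Tbx1-Cre Ctrl, 19772 to 29251 in cKO and 25485 to 42650 in Mesp1-Cre. The list deposited for Mesp1-Cre replicate 1, the one of 42650 peaks, does not match the peak numbers that the study tabulates for its Mesp1-Cre libraries, and values of that group are also given without it. Each Mesp1-Cre list held 2 intervals on the mitochondrial genome and each Tbx1-Cre list 0, although the methods state that mitochondrial reads were removed. The part of this in the comparison with Mesp1-Cre was not tested. Read depth is unknown, so the absence of a called peak does not measure closed chromatin. In sorted populations, fewer cells with an open region and less opening per cell cannot be told apart. A peak lay within 1 kb of a Tbx1 TSS in 3 of 3 Ctrl and 0 of 3 cKO libraries. Promoters of 6 pharyngeal mesoderm markers had 5 to 6 called in Ctrl, 3 to 4 in cKO and 3 to 6 in Mesp1-Cre libraries. Of 4 cardiomyocyte markers, 0 to 1 were called in any library, with Tnnt2, Myh6 and Myl7 called in none. Of 3 epithelial markers, 1 to 3 were called in Ctrl, 0 in cKO and 1 to 2 in Mesp1-Cre. Of 4 pharyngeal endoderm markers, 1 to 2 were called in Ctrl, 1 in every cKO and 1 to 2 in Mesp1-Cre. In the same order, the counts were 1 to 3, 1 and 1 to 2 of 3 somite markers. They were 0 to 1, 0 to 1 and 0 to 2 of 3 otic markers, and 0 to 1, 0 and 0 of 2 neural crest markers. Of 3 neural tube markers, 2 were called in every Ctrl, 1 in every cKO and 2 to 3 in the Mesp1-Cre libraries. Of 3 tail markers, 1 to 2 were called in Ctrl, 0 in cKO and 1 to 2 in Mesp1-Cre, and of 4 endothelial markers 2, 1 and 1 to 2. Olig2, Tbx6 and Tek, 1 from each of these lists, and the epithelial Grhl2 were called in 3 of 3 Ctrl and 0 of 3 cKO libraries. The same held for 1.4% of all protein-coding genes. The endothelial Cdh5 and Pecam1 were called in none of the 9. The part of these differences in the Hox values was not tested.

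The regions on which the calls turned are shown first, as mm9 sequence read 5′ to 3′ along the Hox gene's strand. The first 4 were called in all 9 libraries, the next 2 in 3 of 3 Tbx1-Cre Ctrl and 0 of 3 cKO libraries, and the last in 3 of 3 Mesp1-Cre and 0 of 6 Tbx1-Cre libraries. Each stretch, of up to 300 bases, leaves out annotated UTR bases and lies within the central 300 bases of its region. The Hoxa3 stretch does not reach the midpoint of its region, which is UTR. The exception to the central position is Hoxd10. The centre of that region is UTR, so its stretch is the start of the coding sequence at the region's 3′ edge. Peaks of Ctrl replicates 1 and 2, cKO replicate 3 and Mesp1-Cre replicate 3 ended before this stretch. Capitals mark a Pbx-Hox site (TGATNNAT) or a direct repeat in which GNTCA recurs after 6 bases, the form bound by retinoic acid receptors with a spacer of 5.
Hoxa3, internal start, chr6:52122769-52122903, minus strand: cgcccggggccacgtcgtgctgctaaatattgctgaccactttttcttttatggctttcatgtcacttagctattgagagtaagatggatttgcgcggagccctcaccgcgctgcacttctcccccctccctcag
Hoxb1, 3′ of the gene, chr11:96233967-96234266, plus strand: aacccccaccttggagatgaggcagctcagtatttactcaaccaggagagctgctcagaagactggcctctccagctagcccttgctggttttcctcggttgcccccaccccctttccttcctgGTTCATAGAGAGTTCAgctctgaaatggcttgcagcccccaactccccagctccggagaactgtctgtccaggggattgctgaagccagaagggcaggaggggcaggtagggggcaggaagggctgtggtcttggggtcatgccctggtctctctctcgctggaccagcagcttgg
Hoxc13, upstream of the start, chr15:102751159-102751458, plus strand: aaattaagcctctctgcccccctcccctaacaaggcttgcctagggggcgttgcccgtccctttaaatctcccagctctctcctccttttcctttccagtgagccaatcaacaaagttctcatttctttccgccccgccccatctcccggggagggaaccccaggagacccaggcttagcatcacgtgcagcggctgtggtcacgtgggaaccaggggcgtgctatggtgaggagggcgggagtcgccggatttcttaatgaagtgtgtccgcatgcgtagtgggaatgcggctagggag
Hoxd10, first coding exon, chr2:74530037-74530154, plus strand: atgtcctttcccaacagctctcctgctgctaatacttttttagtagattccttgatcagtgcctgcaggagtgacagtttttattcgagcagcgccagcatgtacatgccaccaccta
Hoxb3, intron, chr11:96194052-96194351, plus strand: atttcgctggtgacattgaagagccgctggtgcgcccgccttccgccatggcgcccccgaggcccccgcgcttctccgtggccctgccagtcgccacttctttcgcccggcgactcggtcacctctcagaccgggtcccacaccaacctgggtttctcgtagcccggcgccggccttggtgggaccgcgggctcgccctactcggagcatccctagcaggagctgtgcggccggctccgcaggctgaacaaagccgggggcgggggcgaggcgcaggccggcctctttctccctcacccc
Hoxd13, first exon, chr2:74506363-74506662, plus strand: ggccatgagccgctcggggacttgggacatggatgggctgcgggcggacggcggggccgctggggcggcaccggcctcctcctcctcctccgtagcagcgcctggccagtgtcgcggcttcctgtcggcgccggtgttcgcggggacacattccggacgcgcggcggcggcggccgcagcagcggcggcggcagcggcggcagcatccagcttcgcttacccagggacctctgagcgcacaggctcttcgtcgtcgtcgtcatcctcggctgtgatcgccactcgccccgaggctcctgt
Hoxb3, internal start, chr11:96202466-96202642, plus strand: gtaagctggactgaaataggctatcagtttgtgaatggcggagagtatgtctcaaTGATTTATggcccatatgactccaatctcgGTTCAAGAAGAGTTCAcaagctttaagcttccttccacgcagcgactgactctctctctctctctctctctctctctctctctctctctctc

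Only the regions 3′ of Hoxb1 and at the internal Hoxb3 start held capitals. The Hoxb1 region lay 6545 bp from the nearest Hoxb1 TSS, beyond the 3′ end of the gene, and carried a direct repeat of spacer 5. The Hoxb3 region of the Mesp1-Cre libraries lay 234 bp from a Hoxb3 TSS and carried both a Pbx-Hox site and such a repeat. Among all 50 Hox regions, 300 bp windows held the spacer-5 repeat in 3 (6.0%), against 1.05% of 73331 windows over all merged regions. The third was a region 2933 bp upstream of a Hoxa3 TSS, called in 2 libraries. The repeat with 3 bases between its copies of GNTCA (spacer 2) was in 0 Hox windows and 1.25% of all. Pbx-Hox sites were in 7 windows (14%, against 9.41%), the Meis hexamer TGACAG in 6 (12%, against 23.9%) and the T-box core GGTGTG in 5 (10%, against 17.7%), on either strand. A match is a description of the letters and not a binding site.

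Hox regions were rich in CpG, as CpG islands are. The median ratio of observed to expected CpG was 0.681 in the 50 Hox windows and 0.286 in all windows, and median GC content was 59.3% against 51.7%. Of the 50 regions, 11 had their midpoint in a coding exon, 8 in a UTR exon, 3 in an exon of a non-coding gene, 17 in an intron and 11 between genes. A midpoint lay within 1 kb of a Hox TSS in 21.

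Few Hox promoters were called. In Tbx1-Cre Ctrl a peak lay within 1 kb of a TSS of 12, 7 and 10 of the 38 genes in replicates 1, 2 and 3. The cKO libraries had 7, 9 and 6, and the Mesp1-Cre libraries 11, 7 and 7. A promoter peak was present in all 9 libraries for 3 of 38 genes (7.89%), Hoxa3, Hoxc13 and Hoxd10, against 49.3% of all protein-coding genes. No library had one for 18 genes (47.4%), against a background of 33.2%. The other 17 were called in some libraries, 3 of them in 1 library only.

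Promoters were then split by CpG content. CpG-rich promoters, with GC of at least 50% and a CpG ratio of at least 0.6 in the 500 bp on either side of a TSS, belonged to 24 of the 38 Hox genes (63.2%) and to 10909 of 22208 genes (49.1%). Of the CpG-rich promoters of all genes, 83.0% were called in all 9 libraries and 1.44% in none. Of the 24 Hox promoters of this kind, 2 (8.33%) were called in all 9 and 11 (45.8%) in none. In single libraries, 87.2 to 96.6% of CpG-rich promoters were called over all genes and 16.7 to 33.3% among Hox genes. The 23 homeobox genes of the head outside the clusters (Otx, Emx, Dlx, Lhx, Msx, Alx, Pitx and others) lay between these, all CpG-rich, with 9 (39.1%) called in all 9 libraries and 2 (8.7%) in none.

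**Figure D1:**
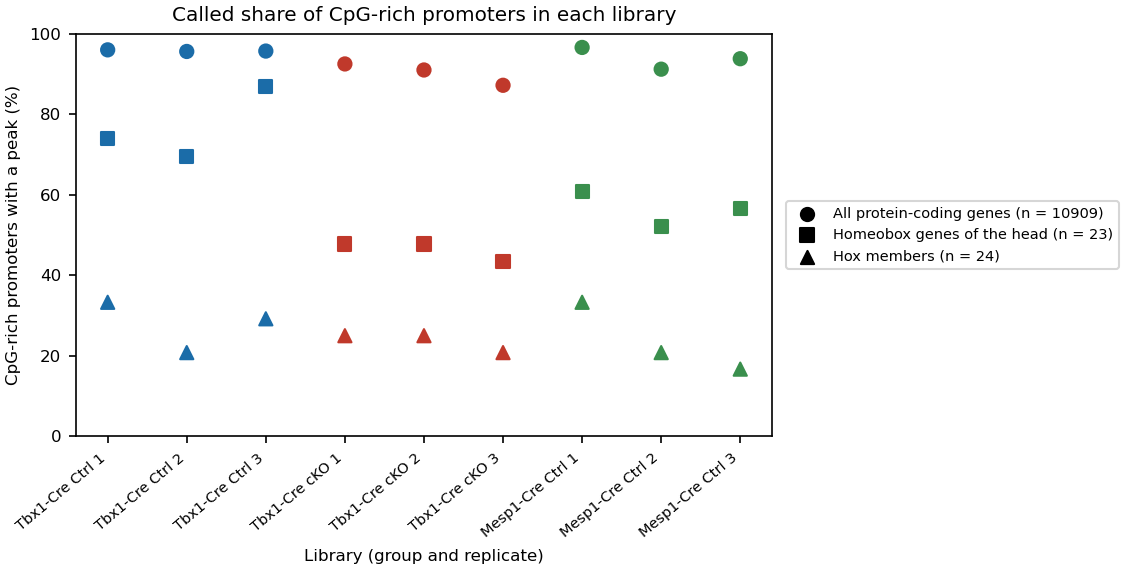
Share of CpG-rich promoters with a called peak (y axis, %) in each of the 9 libraries (x axis), for all protein-coding genes (circles), homeobox genes of the head (squares) and Hox members (triangles). Colours separate the 3 groups. Hox promoters lay at 16.7 to 33.3% in every library, under the 87.2 to 96.6% of all genes.

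Peaks inside the windows were narrow. The windows were nevertheless covered more densely than the genome in 8 of 9 libraries, by 2.06, 0.771 and 1.31 times in Ctrl, 1.63, 1.77 and 1.6 times in cKO and 2.03, 1.74 and 2.12 times in Mesp1-Cre. The median width of Hox peaks was 294, 281 and 448 bp in the Ctrl replicates, where the medians of the whole lists were 464, 504 and 514 bp. In cKO the Hox medians were 278.5, 269 and 277 bp, against 444, 446 and 455 bp. Mesp1-Cre libraries had Hox medians of 338, 310.5 and 326 bp, against 462, 469 and 495 bp. The Hox median was below that of its list in 9 of 9 libraries.

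The genes without any assigned peak were Hoxa2, Hoxa9, Hoxa10, Hoxa11, Hoxb7, Hoxb8, Hoxc5 and Hoxd12. Hoxa2 patterns the second arch and its neural crest, and the other 7 are middle or posterior genes. The longest stretch of window A without a peak in any library, 38.8 kb, lay between the regions at Hoxa13 and Hoxa7 and held every annotated TSS of Hoxa9, Hoxa10 and Hoxa11. In window B the longest was 57.8 kb, in the wide interval between Hoxb13 and Hoxb9 where no listed gene starts. The hairpins of Mir10a, Mir10b, Mir196a-1, Mir196a-2, Mir196b and Mir615, the microRNA genes inside the clusters, had no peak within 1 kb of their start in any of the 9 libraries.

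**Figure D2:**
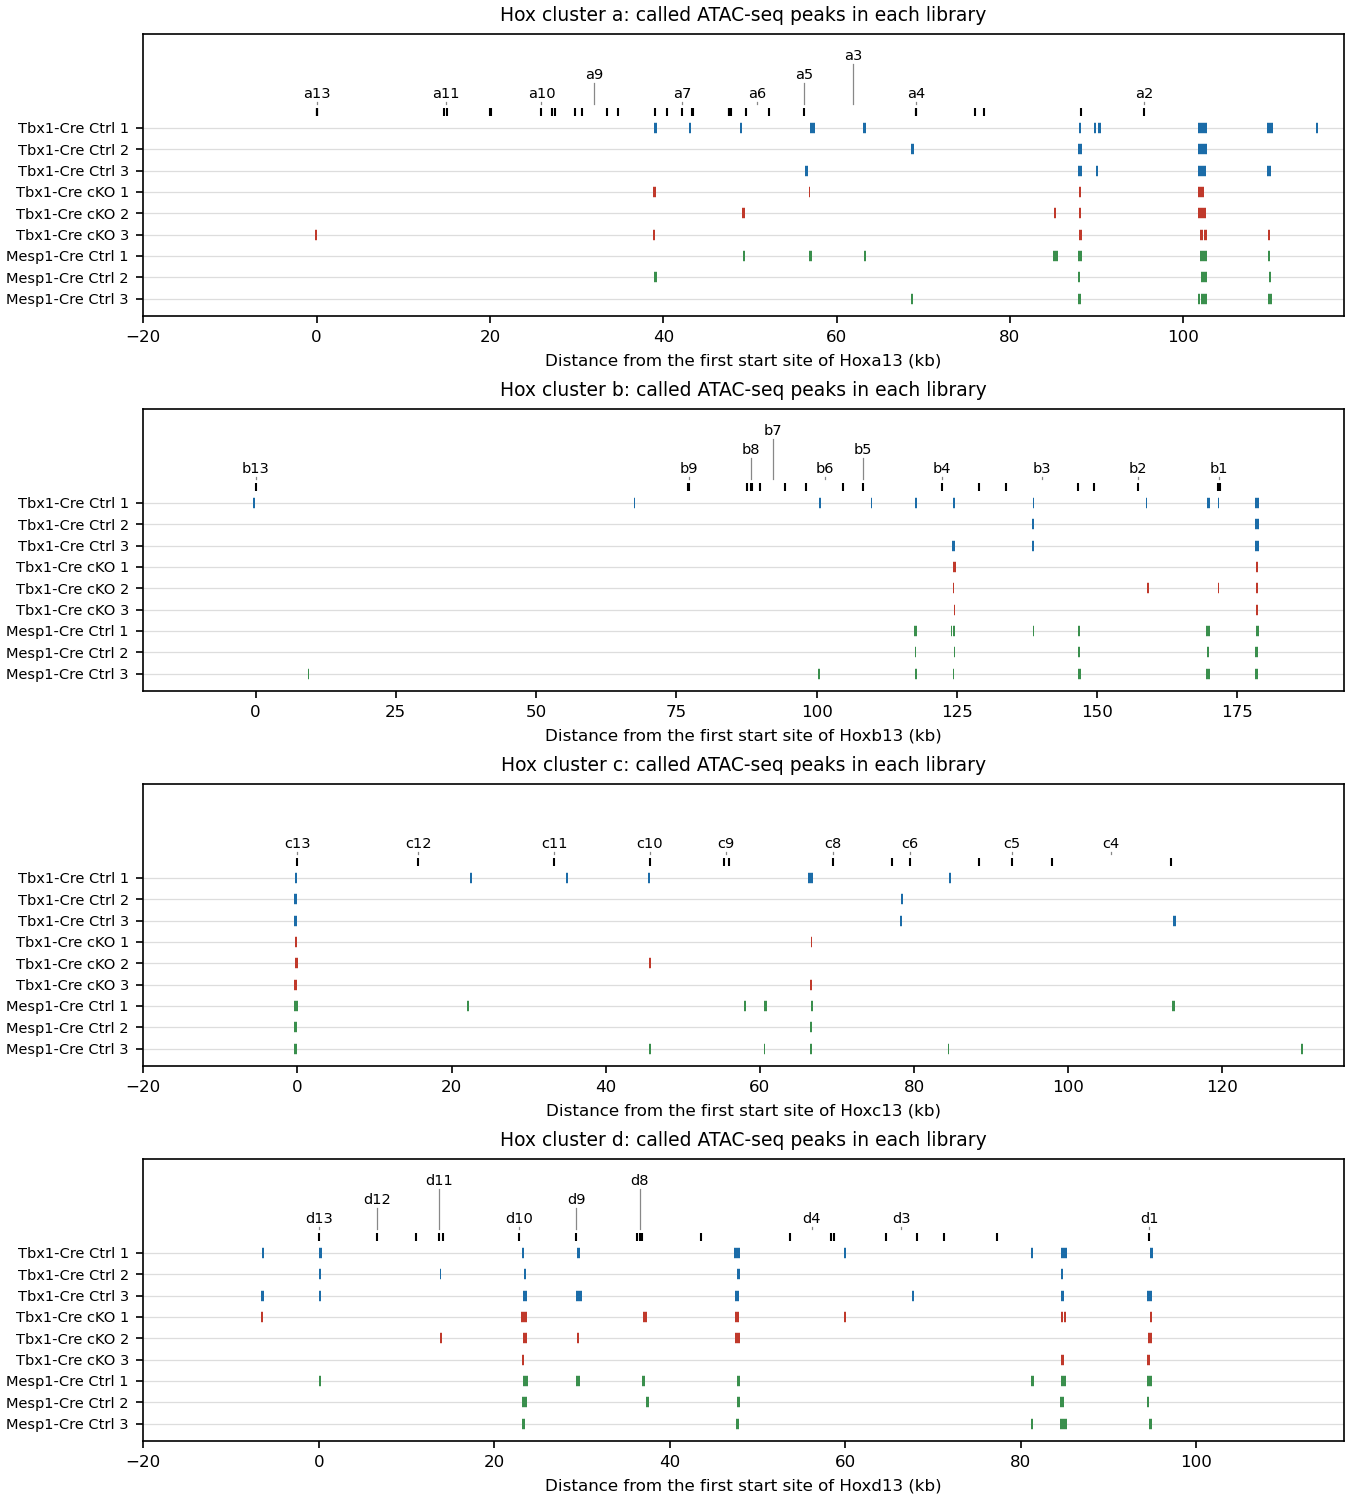
Called peaks along the 4 windows, with distance in kb from the first start site of the paralogue 13 gene on the x axis and 1 row per library. Black ticks mark annotated Hox start sites, with each label at the median of its gene's starts. Peaks recur at a few positions, and the 38.8 kb of cluster A that hold Hoxa9, Hoxa10 and Hoxa11 hold no peak.

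Called promoters did not follow paralogue number. The genes at the 3′ end included Hoxd1, called in 8 of 9 libraries, and Hoxb1, called in 2. Among paralogues 3, Hoxa3 was called in 9 libraries, Hoxb3 in 3 and Hoxd3 in 1. Among paralogues 10, the promoter of Hoxd10, a gene of limb and lumbar patterning, was called in 9, Hoxc10 in 3 and Hoxa10 in 0. Paralogues 13, which act in the tail bud, the digits and the genital tubercle, ran from 1 library each for Hoxa13 and Hoxb13 to 4 for Hoxd13 and 9 for Hoxc13, a gene also of hair and nail formation. The highest paralogue called in 3 of 3 libraries was 3 in cluster A and 13 in cluster C in all 3 groups. In cluster D it was 13 in Ctrl and 10 in cKO and Mesp1-Cre. In cluster B no promoter reached 3 of 3 in either Tbx1-Cre group, and Hoxb3 did in Mesp1-Cre.

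**Figure D3:**
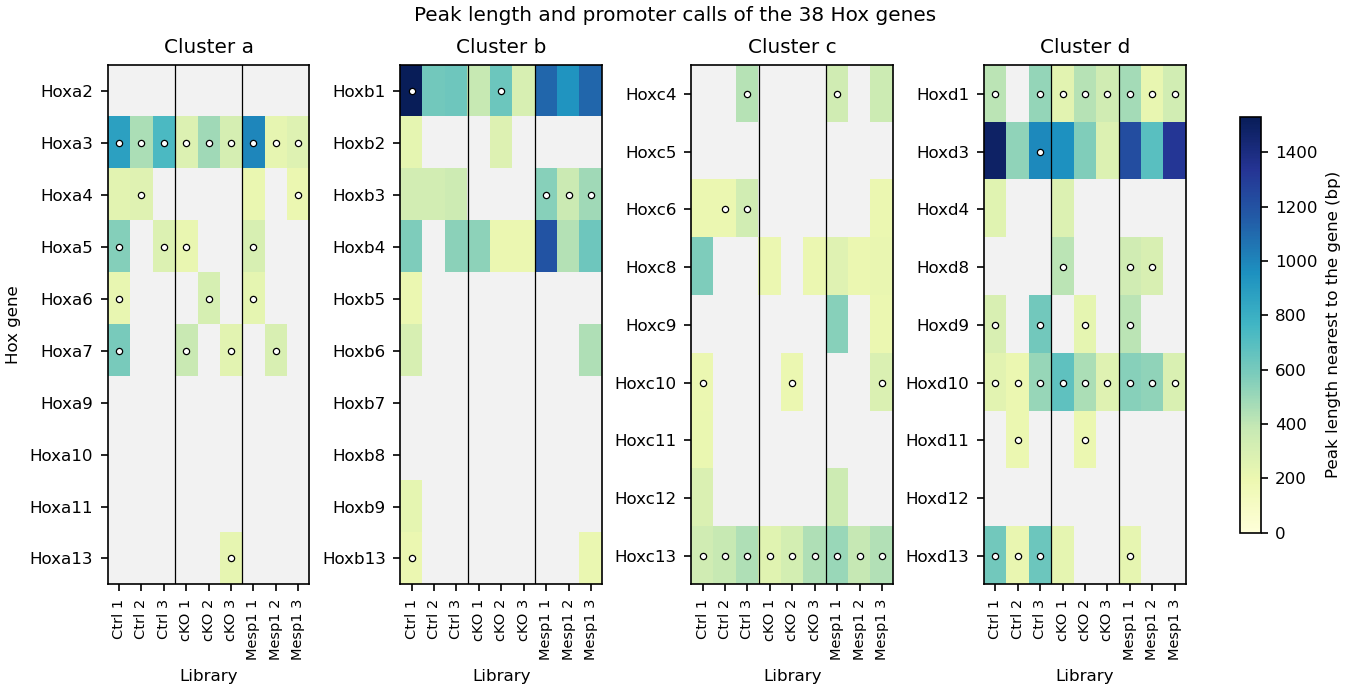
Length of called peaks nearest to each Hox gene (colour, bp; grey where no peak was assigned) in the 9 libraries (x axis), with genes ordered by paralogue number in each cluster (y axis). White circles mark a promoter peak. Hoxa3, Hoxc13 and Hoxd10 have circles in all 9 columns and 18 genes have none.

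Peak length was concentrated at a few genes. Averaged over the 9 libraries, the members with the most assigned peak length were Hoxd3 with 893 bp, Hoxb1 with 805 bp, Hoxa3 with 514 bp, Hoxb4 with 478 bp and Hoxd10 with 415 bp. All but Hoxd10 are of paralogue groups 1 to 4, which in the embryo are used in the hindbrain and the posterior arches. Hoxd3 drew its length mainly from 2 regions at starts of non-coding genes rather than from its promoter. The region at chr2:74590858-74591617 lay 7507 bp from a Hoxd3 TSS, in an intron of a non-coding transcript. It began within 1 kb of the start of Gm14424, a non-coding gene, and had peaks of 620, 231 and 309 bp in Ctrl. There the cKO libraries had 468, 0 and 277 bp, and the Mesp1-Cre libraries 585, 369 and 760 bp. The region at chr2:74553743-74554403, in an exon of the lincRNA 1700109F18Rik, also held the start of that gene. It was called in 3 of 3 Ctrl, 2 of 3 cKO and 3 of 3 Mesp1-Cre libraries. Every group thus held both regions in at least 2 of 3 libraries.

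Of the 50 Hox regions, 4 (8.0%) were called in all 9 libraries, against 18.6% of all merged regions, and 16 (32.0%) in 1 library only, against 31.6%. Of those 16, 8 came from Ctrl replicate 1. The region 3′ of Hoxb1, printed above with its direct repeat, was the widest of the 4. Its peaks were 739, 613 and 622 bp in Ctrl, 377, 420 and 304 bp in cKO, and 440, 500 and 492 bp in Mesp1-Cre. The groups did not overlap, with Ctrl highest and cKO lowest. Among the 4 it alone had every cKO peak shorter than every Ctrl peak, which was the case for 43.9% of the 13645 regions called in all 9 libraries.

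The region at Hoxc13, chr15:102751041-102751577, had its midpoint 224 bp upstream of the TSS and also covered a small predicted gene, Gm17649. Its peaks were 337, 382 and 448 bp in Ctrl, 254, 320 and 445 bp in cKO, and 506, 385 and 441 bp in Mesp1-Cre. At Hoxd10, chr2:74529421-74530154, over the 5′ UTR and the start of the coding sequence, the lengths were 250, 201 and 512 bp in Ctrl, 674, 460 and 262 bp in cKO, and 554, 528 and 292 bp in Mesp1-Cre. At an internal Hoxa3 TSS, chr6:52122504-52123004, they were 291, 455 and 488 bp in Ctrl, 277, 248 and 314 bp in cKO, and 459, 227 and 267 bp in Mesp1-Cre. In these 3 regions the ranges of the groups overlapped. At Hoxd10 the peaks of Ctrl replicates 1 and 2 did not overlap each other.

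**Figure D4:**
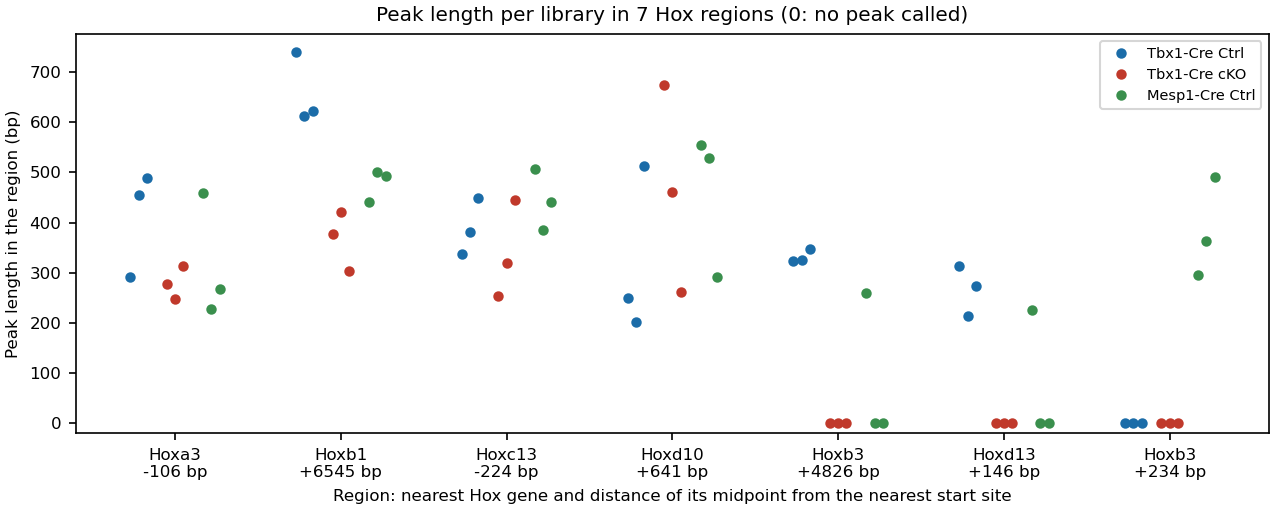
Peak length (y axis, bp) of each library in the 7 printed regions, named on the x axis by the nearest Hox gene and the distance of the midpoint from its nearest TSS. Points are libraries, colours are groups, and 0 stands for no called peak. The cKO libraries are at 0 in the Hoxb3 intron and at Hoxd13, and Mesp1-Cre libraries alone have peaks at the internal Hoxb3 start.

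The comparison of cKO with Ctrl asks what accessibility changes when Tbx1 is lost. The presence of calls at each gene and the total peak length were both used. Of the 38 promoters, Hoxd13 alone (2.63%) was called in 3 of 3 Ctrl and 0 of 3 cKO libraries, against 1.4% of all genes. The count was 2 without Ctrl replicate 1 and 0 with the widest 75% of each list, settings in which the share of all genes was not computed. The Hoxd13 region, chr2:74506334-74506691, spanned the TSS and lay over the first coding exon. Its Ctrl peaks were 314, 214 and 273 bp, and Mesp1-Cre replicate 1 had a peak of 225 bp there. Of these peaks only that of Ctrl replicate 3 covered the TSS, and the others began downstream of it. Of the 50 regions, 2 (4.0%) had this pattern, against 6.73% of all merged regions. The second was a Hoxb3 intron at chr11:96193975-96194428, 4826 bp from the nearest TSS, with 324, 326 and 347 bp in Ctrl and 259 bp in Mesp1-Cre replicate 1. That sequence held 1 T-box core. Both shares were of the order of the background, and no test was made on them.

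When each region was given to the nearest TSS of any protein-coding gene within 20 kb, the peak length of 4 of 38 Hox genes (10.5%) was lower in every cKO library than in every Ctrl library. They were Hoxa3, Hoxb3, Hoxc6 and Hoxd13, and the same held for 33.8% of all genes. None was higher in cKO, against 0.045% of all genes. Without Ctrl replicate 2 the count was 8. When regions were given to the nearest Hox TSS instead, an alternative chosen after seeing the data, it was 2, Hoxb3 and Hoxc6. The share of all genes was not recomputed for either alternative, so the counts of 8 and 2 cannot be set beside the 33.8%.

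Total Hox peak length varied more among the Ctrl libraries than between the groups. This total counts all 53 regions that touched a window, also those not nearest to a listed gene. It was 13.3, 4.43 and 8.36 kb in Ctrl replicates 1, 2 and 3, from 37, 12 and 19 peaks. The cKO libraries had 5.72, 5.33 and 3.79 kb, from 16, 15 and 13 peaks. Ctrl replicate 2, with 43298 peaks in its list, thus had fewer Hox peaks than any cKO library. The mean was 8.69 ± 4.43 kb in Ctrl and 4.95 ± 1.02 kb in cKO (SD, n = 3), and cKO minus Ctrl was -3.74 kb (exact two-sided permutation test, p = 0.3). With 3 libraries against 3 the smallest p this test can give is 0.1, and the 24 tests made here gave Benjamini-Hochberg adjusted values of 0.8 to 1.

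As a share of the whole list, Hox windows took 0.0499, 0.0187 and 0.0318% of the covered length in Ctrl, and 0.0395, 0.043 and 0.0389% in cKO. The cKO values lay within the range of Ctrl. The difference of 0.007 percentage points in the mean (p = 0.5, exact permutation, n = 3 per group) became -0.000375 without Ctrl replicate 2. Promoters called numbered 9.67 ± 2.52 in Ctrl and 7.33 ± 1.53 in cKO (SD, n = 3; p = 0.3, exact permutation). Cutting every list to its 19772 widest peaks turned the difference in Hox peaks and promoters, to 6.0 and 4.33 (unadjusted p = 0.1 each, exact permutation). Promoters called were then 0, 0 and 1 in Ctrl and 3, 5 and 6 in cKO. This cut keeps the whole list of cKO replicate 3 and takes narrower peaks out of the longer lists, and Hox peaks were narrow. The part of this in the change was not tested, and no direction between the groups is taken from the cut. Of the full lists, 8 of 37, 2 of 12 and 5 of 19 Hox peaks in Ctrl reached the median width of their list, and 4 of 16, 3 of 15 and 0 of 13 did in cKO.

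**Figure D5:**
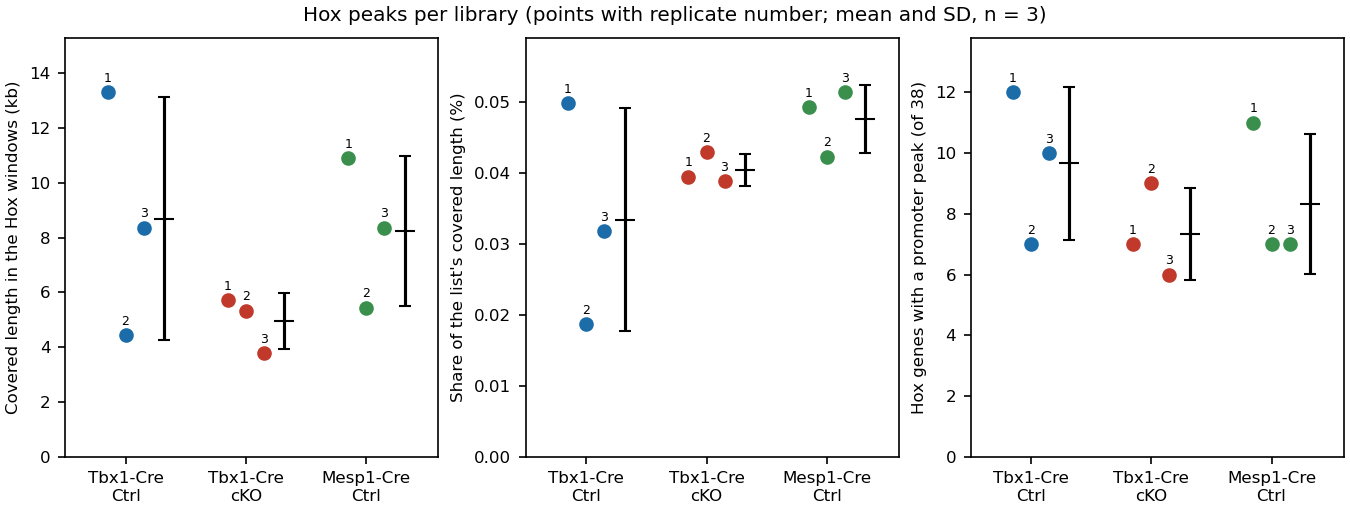
Covered length in the Hox windows (left, kb), its share of the library's covered length (middle, %) and Hox genes with a promoter peak (right, of 38) for each library, with the replicate number at each point and the group mean and SD (n = 3) beside it. Ctrl replicates spread from 4.43 to 13.3 kb and from 0.0187 to 0.0499%, which takes in all 3 cKO values except the lowest in kb.

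By position along the clusters, paralogues 1 to 4 had 5.94, 2.19 and 4.17 kb in Ctrl, 2.67, 2.59 and 1.43 kb in cKO and 6.1, 2.87 and 4.71 kb in Mesp1-Cre. Paralogues 5 to 8 had 2.65, 0.202 and 0.613 kb in Ctrl, 1.2, 0.309 and 0.447 kb in cKO and 1.12, 0.793 and 0.855 kb in Mesp1-Cre. Paralogues 9 to 13 had 2.61, 0.997 and 2.2 kb in Ctrl, 1.16, 1.41 and 0.93 kb in cKO and 2.6, 0.913 and 1.43 kb in Mesp1-Cre. In each class the ranges of cKO and Ctrl overlapped (exact permutation p = 0.3, 0.7 and 0.3 in this order). The posterior genes, paralogues 9 to 13, took 28.1 ± 4.26% of assigned Hox peak length in Ctrl, 29.6 ± 5.77% in cKO and 22.3 ± 3.66% in Mesp1-Cre (SD, n = 3 each). The exact p against Ctrl was 0.6 for cKO and 0.2 for Mesp1-Cre. By cluster, cKO minus Ctrl was -1.2 kb in A, -1.17 kb in B, -0.659 kb in C and -0.716 kb in D, with exact p of 0.3, 0.2, 0.2 and 0.5. These values count every peak in a window, in A also those not nearest to a listed gene.

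The comparison of the Mesp1 lineage with Tbx1-Cre Ctrl used the same Ctrl libraries. It sets a mesodermal lineage beside one that covers mesoderm, endoderm and ectoderm. Of the 38 genes, Hoxb3 alone (2.63%) had a promoter peak in 3 of 3 Mesp1-Cre and 0 of 3 Ctrl libraries, against 0.027% of all genes, which is 6 genes in all. Hoxb3 acts in the hindbrain and the caudal arches. The region, chr11:96202202-96202783, lay in an intron of the longer transcripts at a shorter transcript's start, with peaks of 295, 364 and 490 bp in Mesp1-Cre and none in any Tbx1-Cre library. Of the 50 Hox regions this was the 1 (2.0%) called in 3 of 3 Mesp1-Cre and 0 of 3 Ctrl libraries. Over all regions, whatever their cKO calls, the share was 0.734%. The peak was in Mesp1-Cre replicates 2 and 3 as well as in replicate 1. The non-coding transcript Gm11536 starts within 1 kb of it.

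Other regions of cluster B were called in 3 of 3 Mesp1-Cre libraries and 1 of 3 Ctrl libraries, replicate 1 in each case, and in 0 of 3 cKO libraries. The region 1739 bp upstream of Hoxb1, chr11:96224977-96225676, had 674, 436 and 623 bp in Mesp1-Cre and 512 bp in Ctrl replicate 1. The region 4694 bp upstream of Hoxb4, chr11:96173010-96173596, had 554, 228 and 398 bp in Mesp1-Cre and 326 bp in Ctrl replicate 1. These regions were named after their values were seen. Cluster B as a whole had 2.86, 1.74 and 2.88 kb in Mesp1-Cre and 3.59, 0.939 and 1.51 kb in Ctrl, with p = 0.6 in the exact permutation test.

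No Hox promoter was called in 3 of 3 Ctrl and 0 of 3 Mesp1-Cre libraries, against 0.455% of all genes. Without Mesp1-Cre replicate 1 the count was 1, and the share of all genes was not computed there. In peak length, Hoxb3 was higher in every Mesp1-Cre library than in every Ctrl library (2.63% of members, against 0.423%), with 554, 364 and 490 bp in Mesp1-Cre and 324, 326 and 347 bp in Ctrl. These lengths came from different regions. All of the Ctrl length lay in the Hoxb3 intron region, where Mesp1-Cre had a peak in replicate 1 only (259 bp). The rest of the Mesp1-Cre length was the promoter peak at the internal start, already counted above. Hoxc6, a thoracic gene, was lower by this rule (2.63%, against 15.7%), with 200, 202 and 334 bp in Ctrl. Mesp1-Cre replicates 1 and 2 had no peak, and replicate 3 had one just shorter than the shortest in Ctrl. That Ctrl peak, of replicate 1, lay in the same region. Each of the 2 peaks had the smallest width of any peak in the windows of its library. Whether the peak calling set that width was not tested, and no difference in length is taken from this pair. Hox peak length in all windows was 10.9, 5.44 and 8.36 kb in Mesp1-Cre, a mean of 8.23 ± 2.73 kb (SD, n = 3) that differed from Ctrl by -0.458 kb (p = 0.9, exact permutation). Its share of covered length was 0.0493, 0.0423 and 0.0514%, higher than Ctrl by 0.0142 percentage points (p = 0.3, exact permutation). Without Mesp1-Cre replicate 1 these differences were -1.79 kb and 0.0134 percentage points. Those in cluster C and in paralogues 1 to 4 then turned negative, to -0.0628 and -0.306 kb.

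Genes that act with or on the Hox clusters were counted for comparison. Of the 7 Pbx and Meis genes, whose proteins bind DNA with Hox proteins, 5 had a promoter peak in all 9 libraries, and each was called in at least 1. A promoter peak in all 9 was also found for 2 of 3 retinoic acid receptor genes and 3 of 3 genes for Polycomb subunits (Ezh2, Eed and Suz12), which set a repressive mark on silent Hox genes. The 3 Cdx genes, activators of posterior Hox genes, had 0 to 2 promoters called in a library. Evx1 and Evx2, the homeobox genes that adjoin clusters A and D, had none in any library. No gene of these families was called in 3 of 3 Ctrl and 0 of 3 cKO libraries. Of the 23 homeobox genes of the head, promoters of 17, 16 and 20 were called in Ctrl, 11, 11 and 10 in cKO and 14, 12 and 13 in Mesp1-Cre. Emx2 and Dlx5 were called in 3 of 3 Ctrl and 0 of 3 cKO libraries. Whether these genes and the Hox genes differed in their response was not tested.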

How the data were processed

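ATAC-seq was done on 9 libraries, 3 per group as labelled. According to the study's methods, the authors trimmed adapters with cutadapt, mapped reads to mm9 with Bowtie2 (2.3.4.3 per the labels), retained unique concordant pairs without PCR duplicates or mitochondrial reads, and ran MACS2 (2.1.2.179 per the labels) on every library by itself. The deposited lists hold positions without any score, so that values here are peak presence and the bp covered by peaks. Depth is unknown.

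Genes and TSS came from the GENCODE annotation of NCBIM37 (mm9). Peaks were merged by overlap of at least 1 bp. A promoter was called where a peak lay within 1 kb of any TSS, and regions went to the nearest Hox TSS. Groups were compared by exact two-sided permutation of library means, with 24 tests adjusted together, and shares were set beside those of all genes or regions without a test. Nothing states that replicates came from separate litters or days, so p-values measure the spread between these libraries. The genes named were those whose promoter call differed by 3 of 3 against 0 of 3, the highest paralogue called per cluster and group, the 5 with most peak length and those without a peak; regions were the 5 of largest mean length and those called in 3 Ctrl and 0 cKO libraries. Other regions, namely those called in all 9 libraries, the one in Mesp1-Cre only at Hoxb3 and those upstream of Hoxb1, Hoxb4 and Hoxa3, were named after their values were seen. The members and lists were chosen with earlier results of these data known. The CpG classes and peak widths were added after the data were seen. Of the clusters' genes, 1 is not reported here, and regulators of Hox genes are given for 5 families only. Alternatives were equal numbers of widest peaks, the widest 75% of each list, windows without a margin or with 50 kb, promoters of 500 bp and 2.5 kb, nearest TSS of any gene, nearest Hox TSS, each library left out and a replicate block. Python 3.11.15 and numpy 2.4.6 were used, and the steps were tested on simulated data.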

Additional observations from a re-analysis of the deposited data

How the results depend on the processing

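Full lists differ in length, and no score allows them to be equalised by strength, so that every difference in kb or counts is limited by unknown depth. No p in any alternative could pass 0.05. Shares over all genes were not recomputed under the alternatives, so counts of genes given for them have no background beside them. Of 285 values recomputed for 27 results, 43 changed sign, 23 of them outside the removal of single libraries, and 8 counts moved by more than 1.5 times or to or from 0. The other 234 did not change sign or, for counts, stayed within 1.5 times, and 1 of them, the difference in peaks for Mesp1 without a window margin, fell to 0. With the 19772 widest peaks of every list, cKO minus Ctrl became 1.07 kb of Hox covered length, 6.0 peaks and 4.33 promoters, 0.224, 0.044, 0.13 and 0.671 kb in clusters A to D, and 0.502, 0.324 and 0.591 kb for paralogues 1 to 4, 5 to 8 and 9 to 13. Mesp1 minus Ctrl became 1.74 kb, 5.33 peaks, 2.67 promoters, 6.2 percentage points of posterior share, 0.508 kb in cluster D, and 0.155 and 0.601 kb for paralogues 5 to 8 and 9 to 13. Genes called in 3 Ctrl and 0 cKO libraries numbered 0 and those lower in cKO without overlap 1. This cut removes no peak from cKO replicate 3 and the narrower peaks from longer lists. Hox peaks were narrower than their lists, and the part of the cut's construction in these changes was not tested. With the widest 75% of each list, Mesp1 minus Ctrl became 1.33 peaks, 0.667 promoters, 0.357 percentage points of posterior share, 0.184 kb in cluster D and 0.0827 kb for paralogues 9 to 13, and 0 genes were called in 3 Ctrl and 0 cKO libraries. Without a window margin, Mesp1 minus Ctrl was 0.26 kb. The cause of the changes with the widest 75% and without a margin was not tested. Genes lower in cKO without overlap numbered 2.0 when regions went to the nearest Hox TSS, an alternative chosen after seeing the data.

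Leaving out 1 library at a time, cKO minus Ctrl kept its sign for covered length (-5.87 to -1.45 kb), and ran from -0.000375 to 0.0152 percentage points for the share of covered length, from -0.848 to 4.87 percentage points for the posterior share and from -0.978 to 0.246 kb for paralogues 5 to 8. Mesp1 minus Ctrl ran from -2.59 to 1.84 kb in all windows and from -5.67 to 6.83 peaks. It ran from -0.0543 to 1.27 kb in cluster B, from -0.0805 to 0.647 kb in C and from -0.976 to 0.107 kb in D. For the paralogue classes in ascending order the ranges were -0.49 to 1.38 kb, -0.707 to 0.517 kb and -0.767 to 0.0777 kb. Genes called in 3 Ctrl and 0 cKO libraries numbered 1.0 to 2.0, the most without Ctrl replicate 1. Those called in Ctrl and not in Mesp1 numbered 0.0 to 1.0, the most without Ctrl replicate 1 or Mesp1-Cre replicate 1, and those lower in cKO without overlap 4.0 to 8.0, the most without Ctrl replicate 2. The directions for Mesp1 in all windows turned without Ctrl replicate 1 and without Mesp1-Cre replicate 2.

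Nothing states that replicate numbers pair the libraries. Deviations of same-numbered libraries correlated at -0.004 to 0.05 over all regions, and those of other pairs at -0.045 to 0.04. With 3 libraries per group these values do not decide whether the numbers pair them. With the number as a replicate block (exact sign-flip, smallest p 0.25), covered length differed by -3.74 kb for cKO (p = 0.5) and -0.458 kb for Mesp1 (p = 0.75), and no direction changed in 24 results.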
